A study of Mus musculus with 24 samples.

Results

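Translation initiation factor genes were followed over the projected day in the mouse adrenal gland. They were taken as all genes whose platform symbol starts with Eif1 to Eif6, without Eif2ak3, each read by its brightest probe set. The rule gave 46 of the 18194 genes that had a probe set with a single symbol. Of these 46, 44 lay above the floor on mean signal and were tested among 13881 genes, and the other two, Eif4a3 and Eif5a2, lay under it and were not tested. Whole adrenal glands came from wild-type male C57B/6J mice aged 3 months. The mice had lived for 2 weeks in 12 h of light and 12 h of darkness, and were killed in constant darkness, the first 38 h and the last 82 h after lights off, with 4 h between the 12 time points. Each time point had 2 arrays, 24 in all, and all groups share the genotype and the darkness. Projected circadian time is the hours after lights off minus 12, modulo 24, where 0 marks lights-on in the earlier cycle, and circadian times 2, 6, 10, 14, 18 and 22 are covered. Separate animals or pools are not named in the labels, so the p-values rest on a spread between samples that may be technical.

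Initiation factors assemble the ribosome on a messenger RNA. The factor eIF2 brings the initiator tRNA and is recharged by the exchange factor eIF2B, and kinases that phosphorylate eIF2 block that recharging. The cap-binding complex eIF4F, made of eIF4E, eIF4G and eIF4A, recruits the mRNA, eIF3 holds the small ribosomal subunit, and eIF1, eIF1A, eIF5 and eIF5B act in start codon choice and subunit joining. Repressors called 4E-BPs bind eIF4E and keep it from eIF4G. In the adrenal, glucocorticoid output itself follows a daily rhythm.

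Among the arrays were 6 near-copy pairs, whose signals from 50 upward agreed within 5% for all probe sets, allowing for rounding. Their log2 ratios had an SD of at most 0.0335, against 0.185 to 0.458 in the 30 remaining pairs that share a circadian time. Because they differed by less than that noise, both arrays of a pair were averaged and counted once, giving 18 profiles with 3 per circadian time. Time points 24 h apart were involved in 5 of the 6 pairs. The 8 arrays of circadian times 10 and 18 read 513 to 1860 for the bacterial control ThrX-3 and the other 16 read 56.3 to 101. Those 8 form the second array set (6 profiles) and the remaining arrays the first (12 profiles), a split found in the data and not in the labels. Of all genes tested 46.5% differed between the sets (limma), and circadian times 10 and 18 below are always of the second set. Summed signals of 8 adrenal cortex markers were 61100 to 75100 in the second set and 73700 to 78400 in the first, and those of 5 medulla markers 32100 to 39600 in the second set and 32800 to 41600 in the first. Summed signals of 4 skeletal muscle markers were 256 to 21900 in the second set and 257 to 342 in the first, and those of 3 of 4 liver markers 1200 to 14600 in the second set and 508 to 1890 in the first. Blood (2 of 3 markers) read 593 to 1470 in the second set and 400 to 625 in the first, fat (2 of 4) 6310 to 9400 and 5150 to 8630, and kidney (3 of 3) 780 to 1270 and 1270 to 1490. In the first set Tnnt3, a muscle troponin gene, stood at a signal of 0 in all profiles. The 5' probe set of Gapdh, divided by its 3' probe set, gave 0.0386 in the profile of 78 h replicate 2. It gave 0.846 to 0.978 in the other profiles of the second set and 1.05 to 1.13 in the first, so the sets did not overlap. The part of these signals in the results below was not tested, except where a fit without such profiles is given.

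Rhythms were fitted as a 24 h cosine with the array set as a block, and the amplitude is the height of the fitted peak above the fitted mean, in log2 units. All values are log2(signal + 51) unless named otherwise, and fewer cells of a type and less RNA per cell cannot be told apart in whole glands. A rhythm at an adjusted p under 0.05 was found for 14 of the 44 initiation factor genes (31.8%), and for 17.9% of all genes tested. The members were brighter than most genes, with a median mean level of 11.07 against 9.51 over all genes tested. The part of brightness in the share called was not tested. Without the block 10 members passed (12.8% of all genes), within the first set 10 (12.3% of all genes), and 6 passed in all 3 fits. These 6 were Eif4b, Eif1ax, Eif4g3, Eif2b4, Eif3f and Eif1a. Amplitudes were small: the 14 ranged from 0.09 to 0.36, with a median of 0.19 against 0.22 over all genes called. Over all 44 tested members the median amplitude was 0.085, and over all genes tested it was 0.093. Without the single array of 50 h replicate 2, 9 members passed, and Eif1b, Eif2a, Eif3d, Eif3k and Eif4e3 did not.

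Peak times of the 14 fell into separate parts of the day. In 6 of them, Eif4b, Eif2a, Eif3e, Eif4e3, Eif3f and Eif2s3x, the fitted peak lay between circadian times 6.26 and 9.01, in the projected day. In the other 8 it lay between 14.5 and 22.4, in the projected night. Over all genes called, 40.5% had a peak between circadian times 4 and 12. By 4 h bins, 5 of the 14 peaked at 4 to 8 and 6 at 16 to 20, the bins that also held the most peaks over all genes called (26.6% and 23.2%).

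**Figure D1:**
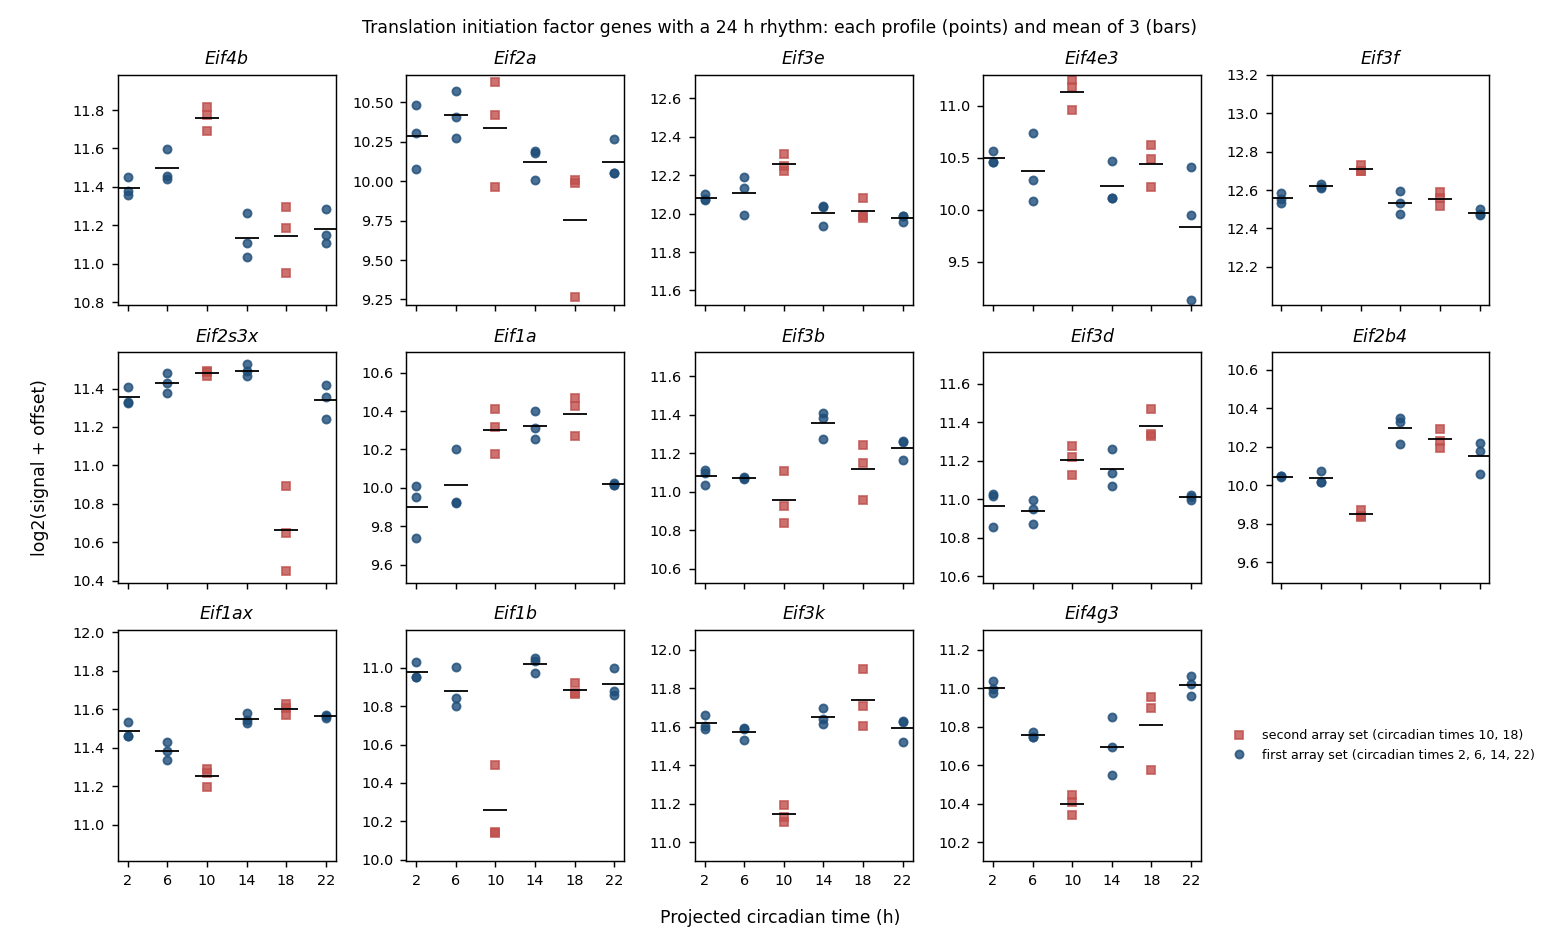
Values of the 14 members called rhythmic, ordered by fitted peak, as log2(signal + 51) against projected circadian time in hours. Points are profiles (squares, second array set; circles, first array set), bars are means of 3, and vertical scales differ between panels. In Eif4b the 3 values at circadian time 10 lie above all others, and in Eif2s3x the 3 values at circadian time 18 lie below all others.

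**Figure D2:**
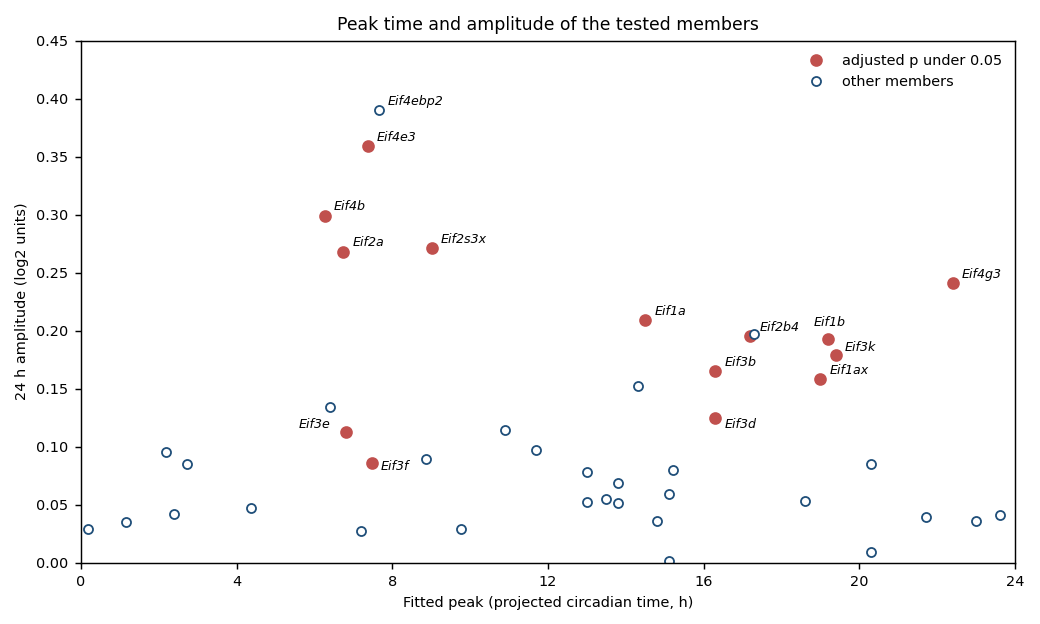
Fitted peak (projected circadian time, hours) against amplitude (log2 units) for the 44 tested members, with the array set as a block. Filled points are the 14 with an adjusted p under 0.05. They sit in a daytime group of 6 and a later group of 8, and over all genes called 40.5% peaked between 4 and 12. Eif4ebp2 has the highest amplitude, 0.39 on its brightest probe set, without passing.

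Start-site and promoter sequence from RefSeq (GRCm38.p6, 250 bases before to 50 after each annotated start) was held for 37 of the 46 members, 11 of them among the 14 called, in 50 windows. Eif1a, Eif2b3, Eif3e, Eif3h, Eif3i, Eif4e3, Eif4ebp1, Eif4g2 and Eif6 were not among them. The sequences below were chosen after the values were seen. Messenger RNAs of several translation proteins are known to begin with a C followed by a run of pyrimidines, the terminal oligopyrimidine tract. A C at the annotated start followed by at least 4 more C or T was present in 2 of the 37 members (5.41%). The share was 3.01% of the 27025 genes with a window. The 2 members, Eif3f and Eif2s3x, were among the 14 called. A link of the tract to rhythm or peak time was not tested. Their start sites are printed with the tract in capitals, from 40 bases before to 19 after the start. The start of Eif4b, which has the lowest p of the members, is printed beside them. It has no tract at its annotated start. Only annotated starts were searched, so a tract that begins at another base would not be counted.
Eif3f (chr7:108934375-108934434, plus strand): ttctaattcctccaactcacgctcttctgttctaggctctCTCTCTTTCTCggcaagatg
Eif2s3x (chrX:94212632-94212691, minus strand): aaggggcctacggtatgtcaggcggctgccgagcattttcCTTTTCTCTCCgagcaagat
Eif4b (chr15:102073733-102073792, plus strand): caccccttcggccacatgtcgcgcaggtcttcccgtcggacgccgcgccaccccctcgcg
The canonical E-box CACGTG (the same on both strands), the element that CLOCK and BMAL1 bind, was found in at least 1 window of 9 of the 37 members (24.3%) and of 8.09% of the 27025 genes with a window. Of the 11 called members with a window, 3 held it: Eif3f with a daytime peak, and Eif1b and Eif3k with night peaks. The other holders, Eif3a, Eif4a1, Eif4e, Eif4h, Eif5a and the untested Eif5a2, were not among the 14 called. A link of the E-box to rhythm was not tested. The D-box TTATGTAA, searched on both strands, was in 0 member windows and was held by 1.11% of the genes. The E-boxes of Eif3f, Eif1b and Eif3k are printed in capitals with their flanks, and a match describes these letters only.
Eif3f (chr7:108934320-108934379, plus strand): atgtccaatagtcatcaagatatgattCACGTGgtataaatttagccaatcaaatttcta
Eif1b (chr9:120492555-120492614, plus strand): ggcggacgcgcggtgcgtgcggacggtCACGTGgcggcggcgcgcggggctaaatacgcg
Eif3k (chr7:28981900-28981959, minus strand): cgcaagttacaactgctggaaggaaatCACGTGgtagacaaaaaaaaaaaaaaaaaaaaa

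Among the factors that recruit mRNA, Eif4b, which stimulates the helicase eIF4A, had the lowest p of all members. Its values were 11.38, 11.45 and 11.36 at circadian time 2, 11.60, 11.46 and 11.44 at 6, 11.77, 11.82 and 11.69 at 10, 11.26, 11.03 and 11.11 at 14, 11.19, 11.30 and 10.95 at 18 and 11.11, 11.15 and 11.29 at 22. The values at circadian times 2, 6 and 10 all lay above those at 14, 18 and 22. The fitted amplitude was 0.30 ± 0.04 (SE, n = 18 profiles), a peak-to-trough ratio of 1.51, with a peak at 6.26 (limma, adjusted p = 0.000265). All 3 of its probe sets passed in the fit over all probe sets, with peaks from 6.26 to 7.36 and amplitudes from 0.24 to 0.30.

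Eif4g3, which encodes a paralog of the scaffold eIF4G, peaked late in the projected night, at 22.4. Its values were 10.98, 11.04 and 11.00 at circadian time 2, 10.75, 10.77 and 10.75 at 6, 10.34, 10.45 and 10.41 at 10, 10.85, 10.55 and 10.70 at 14, 10.57, 10.90 and 10.96 at 18 and 10.96, 11.02 and 11.06 at 22. The 3 profiles at circadian time 10 were the lowest of the 18, and those at 2 and 22 did not overlap those at 6, 10 and 14. The amplitude was 0.24 ± 0.04 (SE, n = 18; limma, adjusted p = 0.00118). Its 3 other tested probe sets, all dimmer, did not pass, with amplitudes from 0.04 to 0.09.

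Eif4e3 encodes a relative of the cap-binding protein eIF4E, and its values spread widely. The gene read 10.47, 10.56 and 10.47 at circadian time 2, 10.09, 10.29 and 10.74 at 6, 11.18, 11.25 and 10.96 at 10, 10.12, 10.48 and 10.11 at 14, 10.22, 10.49 and 10.62 at 18 and 9.13, 10.42 and 9.95 at 22. The 3 values at circadian time 10 were above all others, and those at 22 spanned more than those at any other time. The amplitude of 0.36 ± 0.10 with a peak at 7.37 passed narrowly (adjusted p = 0.0465). It did not pass without the block (0.12) or within the first set (0.377), and the other probe set of the gene did not pass (amplitude 0.07 ± 0.07, adjusted p = 0.782). In the fit over all probe sets that gave this value the chosen probe sets of Eif4e3, Eif2a and Eif1b missed the threshold as well (adjusted p = 0.0527, 0.0523 and 0.0504). Of the 9 tested genes of the cap-binding and helicase group, 3 passed in the blocked fit over genes: Eif4b, Eif4g3 and Eif4e3. For Eif4e itself, the major cap-binding protein, the amplitude was 0.01 ± 0.03 (adjusted p = 0.982), so a rhythm was not detectable on this probe set. Eif4a1 and Eif4a2, the helicase genes, had amplitudes of 0.07 ± 0.02 (adjusted p = 0.0859, and 0.0457 without the block) and 0.13 ± 0.05 (0.0986). Levels of Eif4a1 were 12.31, 12.34 and 12.24 at circadian time 2, 12.36, 12.40 and 12.31 at 6, 12.42, 12.39 and 12.50 at 10, 12.50, 12.40 and 12.44 at 14, 12.36, 12.44 and 12.45 at 18 and 12.35, 12.36 and 12.37 at 22. Those at 14 all lay above those at 2 and overlapped those at 6, 10 and 18. The other probe sets of Eif4a1 had amplitudes of 0.50 ± 0.17 and 0.64 ± 0.25, which did not pass (limma over all probe sets, adjusted p = 0.122 and 0.173), and were lower in the second set, with differences of -1.24 and -1.74. The remaining 3 were Eif4e2, Eif4g2, an eIF4G relative that does not bind eIF4E, and Eif4h, a helper of eIF4A. They had adjusted p from 0.27 to 0.461. A dim probe set of Eif4g2 passed (amplitude 0.20 ± 0.04, limma over all probe sets, adjusted p = 0.00884). Of the 3 genes, Eif4e2, a cap-binding paralog, passed within the first set (amplitude 0.16 ± 0.03, n = 12, limma adjusted p = 0.0143). Levels of Eif4e2 were 9.67, 9.54 and 9.68 at circadian time 2, 9.64, 9.59 and 9.74 at 6, 9.28, 9.54 and 9.44 at 10, 9.99, 9.83 and 9.95 at 14, 8.87, 9.36 and 9.95 at 18 and 9.72, 9.75 and 9.68 at 22. At circadian time 14 all 3 exceeded the rest of the first set, and at 18 the profiles spread over more than the whole first set. In the blocked fit over all probe sets no probe set of Eif4e2 passed (limma, adjusted p from 0.174 to 0.844). The chosen probe set peaked there at 14.3, and the others, the first almost as bright, at 19.2, 20.8, 7.44 and 17.9.

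None of the 3 tested genes for eIF4E-binding proteins passed in any of the 3 fits, and at an unadjusted p under 0.05 the count in the blocked fit was 0 as well. Eif4ebp2, a 4E-BP repressor, had the largest fitted amplitude of all members and the largest error, 0.39 ± 0.15 (SE, n = 18; limma, adjusted p = 0.166). It read 11.20, 11.35 and 11.12 at circadian time 2, 10.99, 10.89 and 11.51 at 6, 10.64, 10.11 and 10.34 at 10, 10.89, 11.04 and 11.14 at 14, 9.25, 10.67 and 8.64 at 18 and 9.96, 11.12 and 10.80 at 22. At circadian time 18 this was a wider range than its values at the other 5 times together. Of the 18 fits that each left out 1 profile, Eif4ebp2 passed in 1, without 54 h replicate 2 (amplitude 0.53, limma adjusted p = 0.0204). That fit keeps 9.25 and 8.64 at circadian time 18, the latter from 78 h replicate 2, with the low Gapdh ratio. Eif4ebp1, another 4E-BP repressor, had 0.09 ± 0.08 (0.711), and Eif4enif1, which carries eIF4E into the nucleus, had 0.10 ± 0.04 (0.197), with levels of 9.89 to 10.30 over all profiles.

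**Figure D3:**
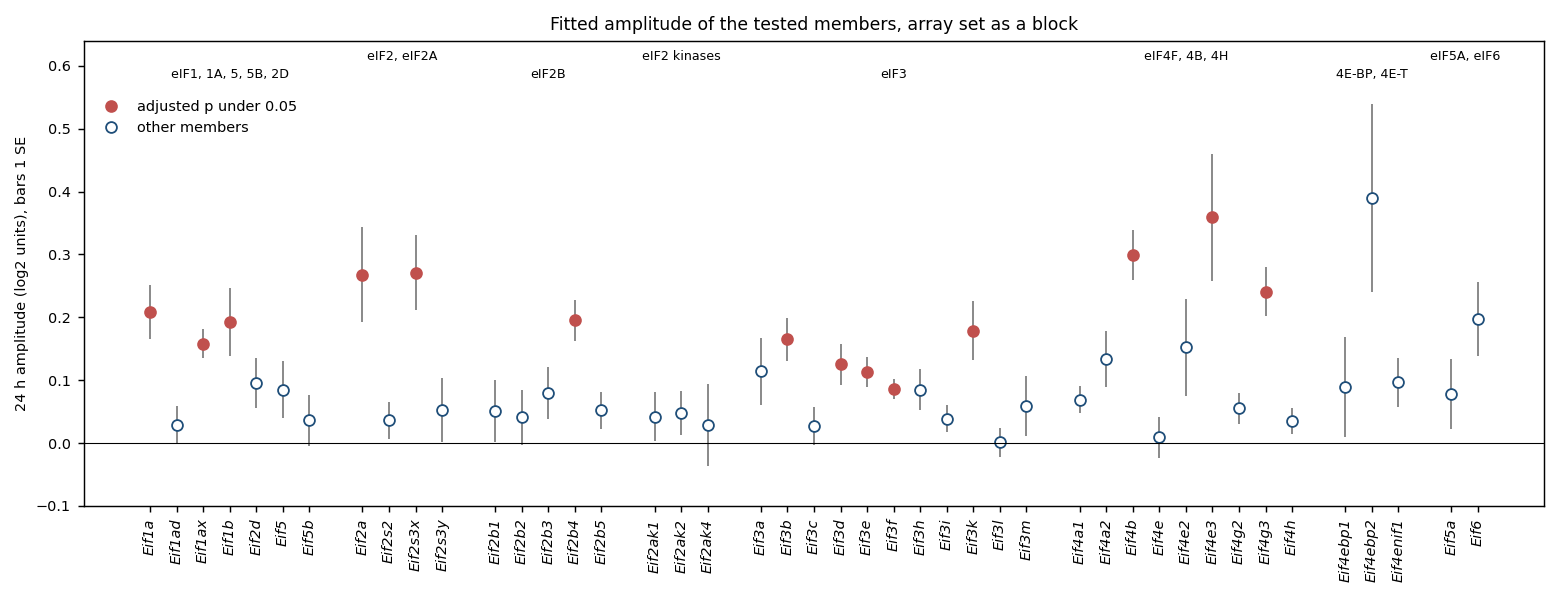
Fitted 24 h amplitude (log2 units) of the 44 tested members grouped by role, with bars of 1 SE and the array set as a block. Filled points are the 14 with an adjusted p under 0.05. The eIF2 kinase and 4E-BP groups, with 3 tested genes each, hold no filled point, and the eIF3 group holds 5 of 11. The eIF2 kinase gene Eif2ak3, left out of the members by the rule, is not shown. Over all genes tested the share called was 17.9%, and differences between the role groups were not tested.

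For start codon recognition and subunit joining, 3 of 7 tested genes passed, and all 3 encode eIF1 or eIF1A proteins. Eif1ax, the X-linked eIF1A gene, had values of 11.46, 11.46 and 11.54 at circadian time 2, 11.38, 11.33 and 11.43 at 6, 11.29, 11.19 and 11.27 at 10, 11.53, 11.54 and 11.58 at 14, 11.63, 11.57 and 11.61 at 18 and 11.57, 11.56 and 11.57 at 22. Replicates lay close together, and the 3 values at circadian time 10 were below all others. The amplitude was 0.16 ± 0.02 with a peak at 19 (SE, n = 18; limma, adjusted p = 0.000573). The probe sets of Eif1ax disagreed: a dimmer one passed with an amplitude of 0.16 ± 0.04 and a peak at 4.59 (limma over all probe sets, adjusted p = 0.0319), and another did not (adjusted p = 0.123).

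Eif1a, an autosomal eIF1A gene, peaked earlier, at 14.5. Its values were 9.96, 9.74 and 10.01 at circadian time 2, 9.92, 9.93 and 10.20 at 6, 10.32, 10.18 and 10.41 at 10, 10.26, 10.31 and 10.40 at 14, 10.47, 10.42 and 10.27 at 18 and 10.03, 10.02 and 10.01 at 22. The 3 values at circadian time 14 exceeded all those at 2, 6 and 22 of the same array set. The amplitude was 0.21 ± 0.04 (SE, n = 18; limma, adjusted p = 0.00726; 0.0125 within the first set), and its other probe set did not pass (adjusted p = 0.147).

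Eif1b encodes a close relative of the start codon factor eIF1. Its values were 10.15, 10.14 and 10.50 at circadian time 10, below all other profiles, whose values lay between 10.80 and 11.05. Its amplitude of 0.19 ± 0.05 (adjusted p = 0.0447) was 0.04 ± 0.03 within the first set, which lacks that time (adjusted p = 0.647). Eif1b did not pass without 78 h replicate 2, the profile with the low Gapdh ratio. Eif5, which stimulates GTP hydrolysis by eIF2, Eif5b, which joins the ribosomal subunits, Eif1ad and Eif2d had amplitudes from 0.03 to 0.10 and adjusted p from 0.22 to 0.811. For 3 of them a dimmer probe set passed in the fit over all probe sets, for Eif5, Eif5b and Eif2d (adjusted p = 0.0101, 0.0472 and 0.0314).

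In the group of eIF2 subunits and eIF2A, 2 of 4 tested genes passed. Eif2s3x, the X-linked gene for the gamma subunit of eIF2, had 10.89, 10.65 and 10.45 at circadian time 18, and every other profile lay between 11.24 and 11.53. The fit gave an amplitude of 0.27 ± 0.06 with a peak at 9.01 (SE, n = 18; limma, adjusted p = 0.0116), and its 2 other probe sets passed with peaks at 9.07 and 8.09. Within the first set, which lacks circadian time 18, the amplitude was 0.09 ± 0.03 with a peak at 11.6 (n = 12, limma adjusted p = 0.0951). Mean levels of Eif2s3x were 11.43 at circadian time 6, 11.48 at 10 and 11.49 at 14, so its highest mean was at 14. Eif2s3y, its Y-linked counterpart, had 10.12, 10.25 and 10.26 at circadian time 18 and an amplitude of 0.05 ± 0.05 (adjusted p = 0.744). The difference between the X- and Y-linked genes was not tested.

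Eif2a encodes eIF2A, a single-chain protein that can deliver initiator tRNA without eIF2. Levels of Eif2a were 10.30, 10.08 and 10.48 at circadian time 2, 10.41, 10.27 and 10.57 at 6, 10.42, 9.97 and 10.63 at 10, 10.18, 10.01 and 10.19 at 14, 10.01, 9.99 and 9.26 at 18 and 10.05, 10.05 and 10.27 at 22. Circadian times 10 and 18 overlapped, as did most times of the first set. The amplitude was 0.27 ± 0.08 with a peak at 6.74 (SE, n = 18; limma, adjusted p = 0.0461), and 78 h replicate 2, with the low Gapdh ratio, gave its lowest value, 9.26. Without that profile it did not pass. The other tested probe set of Eif2a, dimmer and without a mark for cross-hybridization, passed more clearly (amplitude 0.20 ± 0.03, peak at 5.87, limma over all probe sets, adjusted p = 0.00219). Eif2s2, the beta subunit gene, had 0.04 ± 0.03 (0.678) on its brightest probe set, while another, dimmer one passed (amplitude 0.17 ± 0.05, peak at 20.4, limma over all probe sets, adjusted p = 0.0384).

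Among the 5 genes of eIF2B, the factor that recharges eIF2 with GTP, Eif2b4 alone passed. This gene, for the delta subunit, had values of 10.04, 10.05 and 10.05 at circadian time 2, 10.02, 10.08 and 10.02 at 6, 9.87, 9.83 and 9.84 at 10, 10.35, 10.22 and 10.33 at 14, 10.19, 10.23 and 10.29 at 18 and 10.18, 10.22 and 10.06 at 22. The 3 values at circadian time 10 were the lowest of all, and those at 14 and 18 all lay above those at 2 and 6. The amplitude was 0.20 ± 0.03 with a peak at 17.2 (SE, n = 18; limma, adjusted p = 0.00167). The other 4 subunit genes, of which Eif2b3 read 9.35 to 10.04 over all profiles, had amplitudes from 0.04 to 0.08 and adjusted p from 0.349 to 0.78. The kinases that oppose eIF2B by phosphorylating eIF2, Eif2ak1, Eif2ak2 and Eif2ak4, had amplitudes from 0.03 to 0.05 and adjusted p from 0.609 to 0.949. Over all profiles Eif2ak1 read 10.39 to 10.95 and Eif2ak2, the kinase activated by double-stranded RNA, 9.02 to 9.28. At an unadjusted p under 0.05 none of these 3 kinase genes passed in the blocked fit either. A further eIF2 kinase gene, Eif2ak3, left out of the members by the rule, did pass (limma, adjusted p = 0.0135) and is described below.

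Of the 11 tested genes of eIF3, the large scaffold on the small ribosomal subunit, 5 passed, and their peaks did not share a time. Eif3f and Eif3e peaked in the projected day, at 7.47 and 6.8, Eif3b and Eif3d at 16.3, and Eif3k at 19.4. Eif3f had 12.59, 12.53 and 12.56 at circadian time 2, 12.61, 12.62 and 12.63 at 6, 12.70, 12.73 and 12.70 at 10, 12.60, 12.47 and 12.53 at 14, 12.56, 12.59 and 12.52 at 18 and 12.48, 12.50 and 12.47 at 22. All 3 values at circadian time 10 exceeded the other 15. Its amplitude was the smallest that passed, 0.09 ± 0.02 (SE, n = 18; limma, adjusted p = 0.00429), a peak-to-trough ratio of 1.13.

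Eif3b, a core scaffold subunit, had 11.04, 11.10 and 11.11 at circadian time 2, 11.07, 11.08 and 11.07 at 6, 10.84, 11.11 and 10.93 at 10, 11.41, 11.27 and 11.39 at 14, 11.25, 11.15 and 10.96 at 18 and 11.17, 11.26 and 11.27 at 22. The values at 14 were above the other 9 of the first set, and those at 18 and 10 overlapped. The amplitude was 0.17 ± 0.03 (SE, n = 18; limma, adjusted p = 0.00726), also 0.17 ± 0.03 within the first set (0.0034), but 0.11 ± 0.05 without the block (0.228). Eif3d, a subunit that can itself bind the cap, stood at 11.02, 11.03 and 10.86 at circadian time 2, 10.95, 11.00 and 10.87 at 6, 11.13, 11.28 and 11.22 at 10, 11.26, 11.07 and 11.14 at 14, 11.34, 11.47 and 11.33 at 18 and 11.02, 11.01 and 11.00 at 22. In the first set the values at 14 were above all others, and in the second those at 18 were above those at 10. The amplitude of Eif3d was 0.13 ± 0.03 (adjusted p = 0.026; 0.0709 within the first set).

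Eif3e, a peripheral subunit, gave 12.07, 12.10 and 12.08 at circadian time 2, 12.14, 11.99 and 12.19 at 6, 12.31, 12.22 and 12.25 at 10, 12.04, 11.94 and 12.04 at 14, 11.98, 12.08 and 11.99 at 18 and 11.99, 11.96 and 11.99 at 22. The values at circadian time 10 were above all others. The amplitude was 0.11 ± 0.02 (SE, n = 18; limma, adjusted p = 0.00844; 0.147 within the first set). Of its other 3 probe sets 1 passed, with a peak at 6.38. The dimmest did not (amplitude 0.04 ± 0.07). Eif3k, another peripheral subunit, stood at 11.11, 11.13 and 11.20 at circadian time 10, and at 11.52 to 11.90 in the other 15 profiles. Its amplitude of 0.18 ± 0.05 (adjusted p = 0.0333) was 0.03 ± 0.02 within the first set (0.681). Eif3k did not pass without 78 h replicate 2, which gave its highest value, 11.90. The other 6 eIF3 genes, Eif3a, Eif3c, Eif3h, Eif3i, Eif3l and Eif3m, had amplitudes from 0.00 to 0.11 and adjusted p from 0.155 upward.

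Eif5a and Eif6 did not pass with the block, at 0.08 ± 0.06 (adjusted p = 0.579) and 0.20 ± 0.06 (0.0606). Both passed within the first set. Levels of Eif6 were 10.99, 11.00 and 10.96 at circadian time 2, 11.12, 11.01 and 11.12 at 6, 10.54, 10.71 and 10.66 at 10, 11.30, 11.15 and 11.26 at 14, 11.31, 11.07 and 11.34 at 18 and 11.04, 10.92 and 11.03 at 22. Those at 14 were the highest of the first set, and those at 18 lay above those at 10. Eif6, which keeps the large ribosomal subunit from joining too early, had an amplitude of 0.14 ± 0.03 in the first set with a peak at 12.6 (n = 12, limma adjusted p = 0.0135). Eif5a, now known mainly for its part in elongation, had 0.08 ± 0.02 with a peak at 15.1 (adjusted p = 0.0446). Levels of Eif5a were 12.72, 12.78 and 12.66 at circadian time 2, 12.79, 12.83 and 12.70 at 6, 12.69, 12.73 and 12.75 at 10, 12.87, 12.88 and 12.90 at 14, 12.87, 12.81 and 12.15 at 18 and 12.81, 12.84 and 12.78 at 22. Those at 14 exceeded the rest of the first set, and the lowest value at 18 is that of 78 h replicate 2. Without it Eif5a passed with the block (amplitude 0.09, limma adjusted p = 0.018), and Eif6 did so without 42 h replicate 1, 66 h replicate 2 or 82 h replicate 1 (0.0318 to 0.0428).

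**Figure D4:**
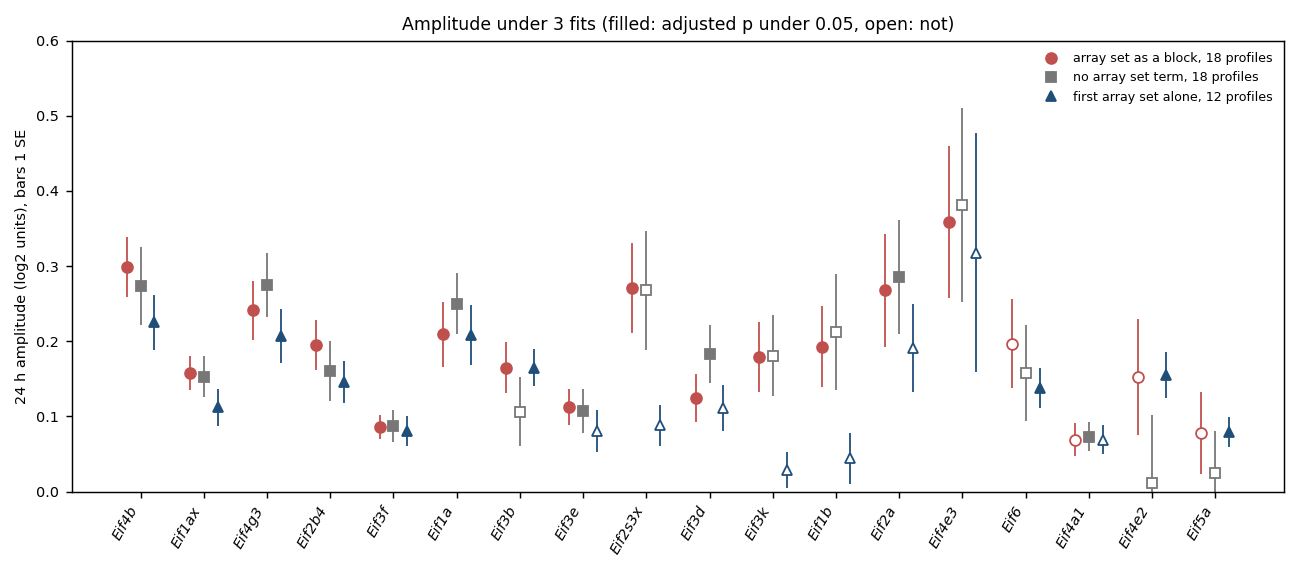
Fitted 24 h amplitude (log2 units) of the 18 members that passed in at least 1 of 3 fits, with bars of 1 SE, ordered by p in the blocked fit. Circles are the fit with the array set as a block, squares the fit without it and triangles the first array set alone, filled where the adjusted p was under 0.05. The 6 genes filled in all 3 fits are Eif4b, Eif1ax, Eif4g3, Eif2b4, Eif3f and Eif1a, and for Eif2s3x, Eif3k and Eif1b the triangle drops to 0.09, 0.03 and 0.04.

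Direct contrasts within an array set avoid the difference between sets. At circadian time 18 against 10, both in the second set, 9 of 44 members differed (6.01% of all genes), 6 higher at 18 (3.57% of all genes) and 3 lower (2.43%). The median difference was -0.023 over the members and 0 over all genes. Higher at 18 were Eif1b by 0.62 ± 0.12 (SE, n = 3 each; limma, adjusted p = 0.0244), Eif6 by 0.60, Eif3k by 0.59, Eif2b4 by 0.39, Eif1ax by 0.35 and Eif3h by 0.32. Lower were Eif2s3x (-0.82 ± 0.12, limma adjusted p = 0.0108), Eif4e3 (-0.69) and Eif4b (-0.62). The count was 0 without 46 h replicate 1 and also without the averaged 70 h arrays, 1 without 46 h replicate 2, and 4 without the averaged arrays of 54 and 78 h. Summed muscle marker signals were 537 to 21900 at circadian time 18 and 256 to 8230 at 10, and liver marker signals 1390 to 14600 at 18 and 1200 to 1420 at 10. Without the 4 profiles with an Acta1 signal over 1000, all in the second set, the blocked fit no longer called Eif1b, Eif2s3x, Eif3e, Eif3k or Eif4e3, and kept the other 9 of the 14. A fit over all 6 circadian times, chosen after seeing the data, takes the spread mainly from the first set and called 15 members at 18 against 10, among them the 9 above (21.2% of all genes). Without those 4 profiles it called 6, Eif1ax, Eif2b4, Eif2s3x, Eif3k, Eif4g3 and Eif6 (5.12% of all genes), with 1 profile left at each time.

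At circadian time 14 against 2, both in the first set, 9 of 44 members differed (8.52% of all genes), 7 higher at 14 (4.32%) and 2 lower (4.21%). Higher were Eif1a by 0.42 ± 0.09 (SE, n = 3 each; limma, adjusted p = 0.0131), Eif4e2 by 0.30, Eif3b by 0.27, Eif2b4 by 0.25, Eif6 by 0.25, Eif5a by 0.17 and Eif4a1 by 0.15. Lower at 14 were Eif4g3 (-0.31) and Eif4b (-0.26). This count was 1 without 50 h replicate 2, 2 without 62 h replicate 1, 3 without 38 h replicate 1 or the averaged replicate 2 arrays of 38 and 62 h, 4 without the averaged 50 and 74 h arrays, and 5 without 74 h replicate 1. At circadian time 22 against 6, 2 members differed (4.25% of all genes). Eif1ax was higher at 22 by 0.18 ± 0.04 (limma, adjusted p = 0.0363) (2.02% of all genes were higher). Eif4b was lower at 22, with a difference of -0.32 ± 0.07 (limma, adjusted p = 0.0287; 2.23% of all genes were lower). Without 42 h replicate 1, 58 h replicate 1, 82 h replicate 1 or the averaged 66 and 42 h arrays the count was 0, and without 74 h replicate 1 it was 4.

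Levels of 21 of the 44 members differed between the array sets beside the 24 h cosine (46.5% of all genes), 9 higher (16.9%) and 12 lower (29.6%) in the second set. This term holds technical differences and any departure from a cosine at circadian times 10 and 18, which cannot be told apart. Eif4e was -0.67 ± 0.06 (second minus first set, SE, n = 18; limma, adjusted p = 6.62e-08), on its brightest probe set, with values of 10.62, 10.57 and 10.69 at circadian time 10 and 10.56, 10.62 and 10.44 at 18, and between 11.15 and 11.45 in the first set. The sets did not overlap on this probe set, and no rhythm was called beside the shift. On the other probe sets of Eif4e, the first of them almost as bright, the difference was -0.13 and 0.03 (limma over all probe sets, adjusted p = 0.115 and 0.712). Eif4a2, with a single tested probe set, was -0.47 ± 0.08 (7.76e-05). Eif4ebp2 was -1.04 ± 0.26 (0.00316) on its brightest probe set, but 0.49 (0.00149), 0.39 (0.019) and -0.26 (0.0987) on the dimmer ones, so its direction depends on the probe set. Higher in the second set were Eif4e3 at 0.60 ± 0.17 (0.00885; 0.26 on its other probe set, 0.0689), Eif2ak1, the heme-regulated kinase, at 0.36 ± 0.06 (8.81e-05) and Eif5b at 0.35 ± 0.06 (0.000171), each on its brightest probe set. The other 3 probe sets of Eif2ak1 differed by -0.06 to 0.02 and did not pass, and those of Eif5b by 0.05 (0.683) and -0.26 (0.0219).

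Other genes of the pathway were described beside the members, against the same 17.9% of all genes. Of 13 further initiation factors and regulators of initiation 8 passed with the block, and 5 without it. Ppp1r15a, a phosphatase subunit that removes the phosphate from eIF2, had an amplitude of 0.39 ± 0.05 with a peak at 8.16 (SE, n = 18; limma, adjusted p = 0.000101), and its paralog Ppp1r15b 0.20 ± 0.03 at 11.3 (0.00169). Pdcd4, an inhibitor of eIF4A, had 0.27 ± 0.04 with a peak at 5.39 (0.00116). The eIF2 kinase gene Eif2ak3, which encodes PERK, had 0.23 ± 0.05 at 8.83 (0.0135), and Dhx29, Abce1, Paip2 and Pabpc1 also passed.

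Of 14 tested genes of mTOR and MNK signalling to eIF4E, 2 passed with the block and 0 without it. They were Tsc1, a brake on mTOR, with 0.39 ± 0.07 at 18.3 (SE, n = 18; limma, adjusted p = 0.00316) and Deptor, an mTOR inhibitor, with 0.32 ± 0.07 at 5.68 (0.00671). The level of Tsc1 differed between the sets too (second minus first, -1.01). Of 11 tested elongation and termination factors 5 passed with the block and 2 without it. The largest was Eef2k, the kinase that inhibits elongation factor eEF2, with 0.44 ± 0.06 at 8.16 (0.000173). Etf1, the release factor, had 0.15 ± 0.03 at 9.67 (0.00472), and Eef1a1 and Eef2, the main elongation factors, had 0.03 ± 0.01 and 0.07 ± 0.03 and did not pass.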

How the data were processed

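The authors deposited one intensity value per probe set and array, on a linear scale, for Affymetrix mouse arrays hybridised with biotin-labelled total RNA, per the labels' protocols. For summarisation and scaling no source used here gives the method. The arrays' medians of log2(intensity + 51) were between 8.14 and 8.32, and no further normalization was applied. The offset of 51 is the 10th percentile of all values, and it understates changes of dim genes. Arrays have no read depth, and their number limits the precision.

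Of 45101 probe sets, 34958 had a single symbol in the platform's annotation, 932 had several and were not named, and 9211 were not listed. The floor on mean signal was 183, the 40th percentile of the means, and the brightest remaining probe set stood for its gene. Near-copy arrays were averaged, and array sets were split at a ThrX-3 signal of 300, a rule taken from earlier results of these data. Rhythms (cosine and sine of 24 h) and contrasts were tested in R (4.3.3, with data.table, version 1.17.8) by limma's moderated tests (3.58.1, with a trend), and adjusted by Benjamini-Hochberg over 13881 genes, with a threshold of 0.05. Other probe sets of members were read from the same fit over 27021 probe sets. The fits were run on simulated data with independent noise, where recovery was required only for effects larger than any called in the members.

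Members, role groups and lists were chosen with earlier results of these data known. Values by profile, or their range, are given for members called in any of 3 fits and for those with the 2 largest amplitudes of a role group. Samples whose label ends in B are replicate 2. Alternatives changed the offset, scaling, floor, probe set, array set term and the profiles used.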

Additional observations from a re-analysis of the deposited data

How the results depend on the processing

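With the array set as a block, the count of 14 members called was 9 to 14 without each profile in turn (9 of the 14 genes kept their call in all 18 such fits: Eif1a, Eif1ax, Eif2b4, Eif2s3x, Eif3b, Eif3e, Eif3f, Eif4b and Eif4g3). It was 13 with an offset of 1 and with arrays centred on their medians, 14 with a 4 times larger offset and with quantile normalization, 11 without the filter on low values, 12 on probe sets without any suffix (_x, _s or _a), 14 without the suffixes for cross-hybridization (_x and _s; chosen after seeing the data), 12 without 78 h replicate 2 and 11 without 4 profiles with muscle transcripts. With all 24 arrays as independent it was 19, and 4620 of all genes passed against 2481, since 6 near-copies count again there. Without each profile in turn 1800 to 2604 of all genes passed. Without the block the count of 10 members was 18 with all 24 arrays, 6 without 78 h replicate 2, 4 without the muscle profiles and 5 to 11 without each profile in turn; it was 5 without either 46 h array and 6 without 38, 58, 62 or 82 h replicate 1, or the averaged arrays of 38 and 62 h or of 70 h. Within the first set it was 3 to 9 without each profile in turn, with 3 without 50 h replicate 2 and 6 without the averaged 50 and 74 h arrays. Leaving out each profile in turn gave 0 to 12 members for circadian time 18 against 10, 1 to 9 for 14 against 2, 0 to 4 for 22 against 6 and 18 to 25 for the array set term. For 22 against 6 the count was 1 on probe sets without any suffix. For 18 against 10 it was 15 in a fit over all 6 circadian times, and 6 in that fit without the muscle profiles, where the lone profile of each time is assumed to vary like the first set (both chosen after seeing the data). Within the second set alone that contrast has no residual degrees of freedom. On probe sets without any suffix Eif1ax and Eif3e did not pass, and Eif4e3 did not pass with an offset of 1 or centred arrays. The causes of these changes were not tested, beyond fewer samples or genes in a fit. With a replicate block beside the array set 11 members passed, without Eif1b, Eif3k and Eif4e3. The replicate letters do not pair the samples by the labels, and differences between replicates correlated above 0.1 in 17 of 66 pairs of time points (-0.56 to 0.53).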
